A study of Mus musculus with 2 samples.

Results

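Gzma+ effector CD8 T cells, the granzyme A-rich fraction of the CD8 T cells in mouse liver metastases, numbered 103 in the Ctrl library and 124 in the KD library, or 227 of 19999 filtered cells. They were selected cell by cell on measured counts of unique molecular identifiers (UMIs, one per captured RNA molecule). Each carried at least 2 UMIs of the CD3 genes Cd3d, Cd3e and Cd3g in sum, at least 1 UMI of Cd8a or Cd8b1, none of Cd4, at least 3 of Gzma and none of Tcf7, the gene of the transcription factor TCF1. Cells in which Pdcd1 (PD-1) and Havcr2 (TIM-3) were both detected were left out, as were cells with 3 or more UMIs over the cycling genes Mki67, Top2a, Birc5, Pclaf and Cdk1, and cells with any UMI of Csf1r or Cd79a. Gzma and the other genes of this rule are therefore described below but carry no evidence of their own.

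The study injected MC38-LM3b cells, a liver-tropic line derived from the MC38 mouse colon carcinoma, into the spleen of C57BL/6 mice aged 6 to 8 weeks and collected CD45+ cells from the liver metastases 2 weeks later by positive selection. The tumour cells of the Ctrl group stably carried a scrambled hairpin (shScramble) and those of the KD group a hairpin against SLAMF3 (shSLAMF3), the product of Ly9. The host cells sequenced here did not carry either hairpin. Each group was a single library pooled from 3 mice, so the 2 libraries had no replicate check, no p-value was computed, and the pooled mice cannot be told apart from the hairpin. All intervals are 95% intervals that cover counting error only, exact for shares, levels and ratios and combined from the exact ones for differences of shares.

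The hairpin targets are shown because they are all that distinguished the groups by design. Each is 21 bases long, written 5′ to 3′.
shScramble target: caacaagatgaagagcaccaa
shSLAMF3 #2 target: caccctaatctgcactgtaaa
Of 141767 mouse transcripts in GENCODE vM21 (GRCm38), none held the scrambled target on either strand. The shSLAMF3 target occurred in 5, all transcripts of Ly9, in sense orientation at chr1:171601975-171601995, within exon 2 or exon 3 depending on the transcript and inside the coding sequence of the coding ones.

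Granzyme A is a trypsin-like serine protease that cytotoxic lymphocytes store in secretory granules and release together with the pore-forming protein perforin. In CD8 T cells its gene is typically expressed by antigen-experienced effector and effector memory cells, and in the liver also by innate-like T cells and NK cells. Effector CD8 T cells are commonly divided into circulating cells that express KLRG1 and CX3CR1 and tissue-resident cells that express CXCR6, which holds lymphocytes in the liver.

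The marker genes that the rule did not use were present throughout. Nkg7, which encodes a granule membrane protein, was detected in 98.1% of Ctrl and 98.4% of KD members. Ccl5, the gene of the chemokine RANTES, was detected in all of them. Transcripts of the alpha-beta T cell receptor were also detected in most members, with Trbc2 in 97.1% and 96% of members and Trac in 91.3% and 75.8%. Cd8b1, the CD8 beta chain, and Cd8a are genes of the rule, so their shares only describe the members. Cd8b1 was detected in 91.3% of Ctrl and 75.8% of KD members and Cd8a in 65% and 73.4%. The level of Trac was lower in KD by a log2 ratio of KD over Ctrl of -0.53 (-0.80 to -0.26), or -0.37 without the mixed members defined below.

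At least 1 UMI of the innate lymphocyte genes Trdc, Tcrg-C1, Trgc2 (Tcrg-C2), Tcrg-C4, Zbtb16, Ncr1, Tyrobp and Fcer1g was found in most members, since only 49 Ctrl and 46 KD members had none, but the genes that define NK and gamma-delta T cells were rare. Trdc, the delta chain constant gene, was seen in 1 cell of each library. Ncr1, the NK receptor NKp46, was seen in 1 and 2 cells and Klra8, the NK receptor Ly49H, in 1 cell of each. NK cells of the same libraries, chosen as non-cycling cells with no CD3 UMI, at least 2 UMIs of Ncr1 or Klrb1c and none of Csf1r or Cd79a, held Klra8 at 432 and 376 CPM (UMIs of a gene per 1000000 UMIs summed over a population). Trgc2, a gamma chain constant gene that alpha-beta T cells can also transcribe, was detected in 23.3% of Ctrl and 38.7% of KD members. Fcer1g, an adaptor of NK and myeloid cells, was detected in 29.1% and 27.4% of members, at 369 and 363 CPM, or 190 and 142 CPM without the mixed members, against 2070 and 2190 CPM in NK cells. Foxp3, Cd40lg and Sox13 had no UMI in any member.

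Depth was similar in both libraries, with a median of 3944 UMIs and 1689 genes per Ctrl member and 4410.5 UMIs and 1838.5 genes per KD member, and mitochondrial shares of 1.32% and 1.88%. The summed UMIs were 458576 and 628035. Of 10416 and 10943 deposited barcodes, 27 were found in both libraries, none of them a member. No doublet caller was run. Some members carried many transcripts of another lineage: 4 Ctrl and 10 KD members had at least 10 UMIs from one of 7 marker lists of B cells, myeloid cells, neutrophils, dendritic cells, endothelial cells, hepatocytes or tumour cells. All 4 in Ctrl reached this through the myeloid list, and of the 10 in KD 5 did so through the neutrophil, 3 through the myeloid, 2 through the endothelial and 1 through the dendritic list. These mixed members held a median of 7987.5 UMIs in Ctrl and 11248.5 in KD, above the 3897 and 4258 of the others. The NK list was not among the 7. It had 10 or more UMIs in 7 Ctrl and 11 KD members, and some of these cells were not mixed and stay in the results without mixed members. Because this group was defined after the data were seen, the results that depend on it are given with and without it. 

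**Figure D1:**
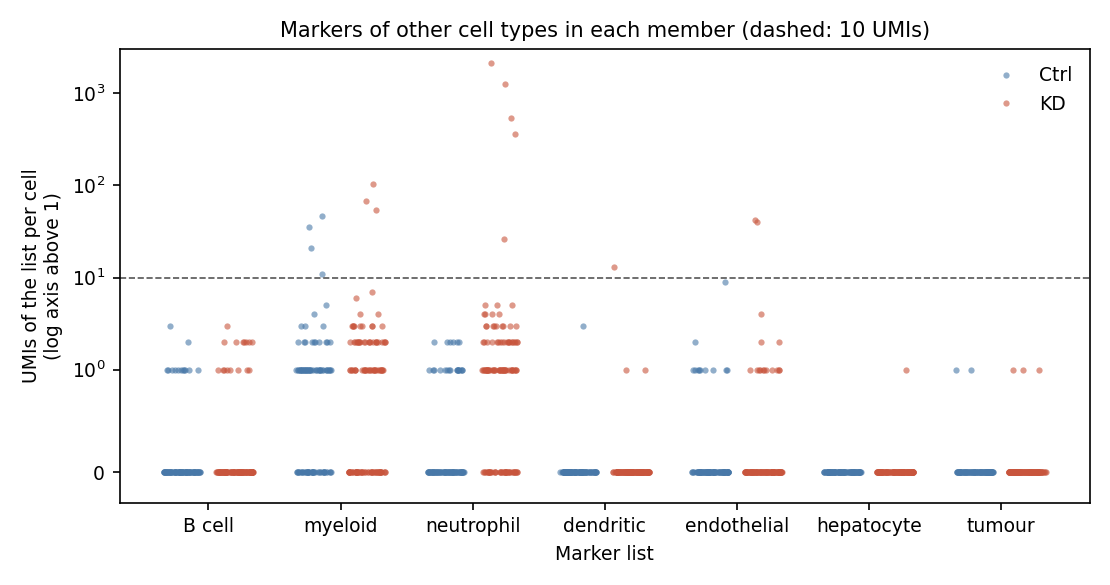
UMIs of each other-lineage marker list (vertical axis, logarithmic above 1) in every Ctrl (blue) and KD (red) member, 1 point per cell, with the 10-UMI limit dashed. Most cells lie at 5 UMIs or fewer, and a few KD cells carry many more neutrophil UMIs, up to 2147.

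The members were a larger fraction of the CD8 T cells in KD than in Ctrl. They made up 103 of 2754 CD8 T cells in Ctrl, or 3.74% (3.06 to 4.52%), and 124 of 1201 in KD, or 10.3% (8.66 to 12.2%), a difference of 6.58 percentage points (4.75 to 8.56). The denominator differed as well, since the KD library held fewer CD8 T cells. Of all filtered CD45+ cells the members were 1.05% and 1.22%, a difference of 0.168 points whose interval (-0.133 to 0.469) included 0. Without the mixed members the shares of CD8 T cells were 3.59% and 9.49%, a difference of 5.9 points (4.13 to 7.82). The 49 Ctrl and 46 KD members with no UMI of the innate lymphocyte genes were 1.78% and 3.83% of the CD8 T cells, 2.05 points apart. The denominators were unchanged, and this limit kept 49 of the 103 Ctrl and 46 of the 124 KD members. Why the gap was narrower was not tested.

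The Gzma minimum can also be applied to the CD8 T cells before the other steps of the rule. Gzma is a gene of the rule, so these shares describe the selection and are not separate support. At least 3 Gzma UMIs were carried by 302 CD8 T cells in Ctrl (11%) and 384 in KD (32%), a difference of 21 points (18.1 to 24). Of these, joint detection of Pdcd1 and Havcr2 removed 47.7% in Ctrl and 44.8% in KD, Tcf7 3.64% and 3.65%, and the cycling genes 29.8% and 43.8%. The share with 3 or more UMIs of the cycling genes was thus 13.9 points higher in KD (6.49 to 21.2), and these cells are not among the members.

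Among the 633 Ctrl and 283 KD cells that met every step but the Gzma minimum, the members were 16.3% and 43.8%. Cells with no Gzma UMI were 75.7% of this pool in Ctrl and 47.7% in KD, and cells with 1 or 2 UMIs were 8.06% and 8.48%. Of the 3 classes of members, the one with the most Gzma differed most, since cells with 20 or more UMIs were 4.74% in Ctrl and 22.3% in KD, 17.5 points apart (12.4 to 23). The median member held 10 Gzma UMIs in Ctrl and 20.5 in KD, with maxima of 112 and 200, and the summed level was 4380 and 6910 CPM. Just inside the minimum, at 3 or 4 UMIs, lay 21 and 14 cells, and just outside it, at 1 or 2, lay 51 and 24.

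**Figure D2:**
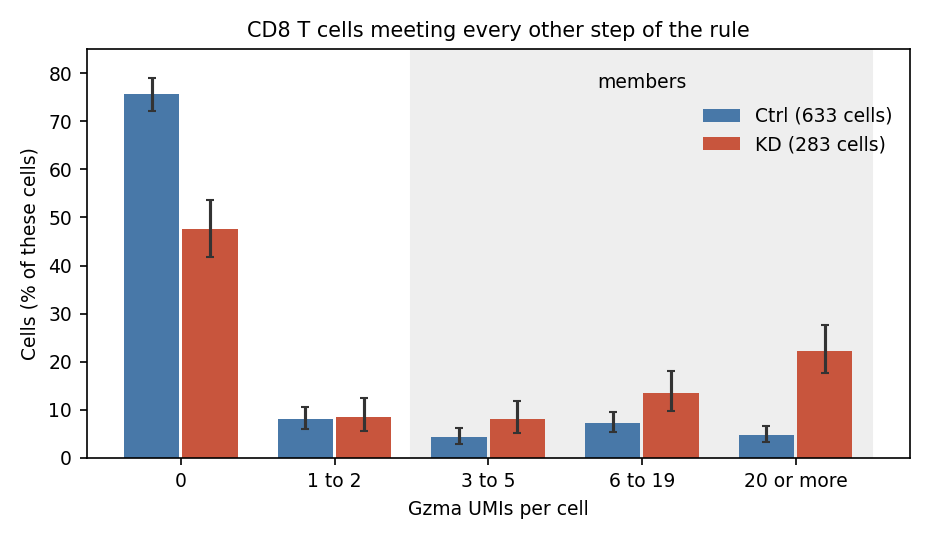
Share (%) of the CD8 T cells meeting every other step of the rule that held 0, 1 to 2, 3 to 5, 6 to 19 or 20 or more Gzma UMIs, in Ctrl (633 cells) and KD (283 cells), with exact 95% binomial intervals as bars. The classes of members are shaded, and the 20 or more class holds 4.74% of Ctrl and 22.3% of KD cells.

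Cells that should lack Gzma, namely macrophages (at least 2 Csf1r UMIs and no CD3 UMI) and B cells (at least 2 Cd79a UMIs and no CD3 UMI), rarely reached the minimum. At least 3 Gzma UMIs were found in 2 of 1241 Ctrl and 1 of 1476 KD macrophages (0.161% and 0.0678%) and in 0 of 165 Ctrl B cells, which allows a share of cells at the minimum of up to 1.82% (3 counts), and 1 of 617 KD B cells. Macrophages were the deeper population, with medians of 7351 and 8618.5 UMIs. In NK cells the share at or above the minimum was 82.9% in Ctrl and 67.0% in KD, so the KD minus Ctrl difference there was negative (-15.9 points, -28.8 to -1.91).

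None of 14 granule genes differed by 2-fold between the members of the 2 libraries. Of all genes tested 1.73% were 2-fold higher in KD and 0.824% lower, so this count does not set the granule genes apart. Whatever the fold, 4 of the 14 had an interval below 0 and 1 above 0, against 282 and 193 of 3521 genes. The perforin gene was among those lower in KD. Gzmb, which encodes granzyme B, was at 1340 CPM in Ctrl and 1190 in KD, a log2 ratio of KD over Ctrl of -0.18 (-0.33 to -0.02), and was detected in 88.3% and 89.5% of members. Gzmk, the gene of granzyme K, was at 218 and 189 CPM and in 58.3% and 54% of members. Most Gzmk-bearing cells also held Gzmb, with both detected in 52 Ctrl and 60 KD members.

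Prf1, the perforin gene, was at 297 and 182 CPM, a log2 ratio of -0.71 (-1.08 to -0.34), and was -0.75 without the mixed members. Nkg7 was at 2210 and 1840 CPM, and Fasl, the death ligand, at 148 and 164 CPM. Rab27a, needed for granule release, had a log2 ratio of 0.85 (0.19 to 1.54), and the interval spanned 0 without the mixed members at 0.66. Gzmc to Gzmg, close relatives of Gzmb between which reads may be split, had at most 7 UMIs each.

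The genes of 3 secreted effector molecules were lower in KD. Ccl5 was at 17000 CPM in Ctrl and 13600 in KD, a log2 ratio of -0.32, or -0.21 without mixed members. Ccl4, a chemokine of activated T cells, was at 2480 and 1610 CPM (-0.62, -0.75 to -0.50). Ifng, the gene of interferon-gamma, was at 547 and 261 CPM (-1.07, -1.36 to -0.78), although it was detected in 51.5% of Ctrl and 48.4% of KD members.

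A single Ctrl member, with 11 Gzma UMIs and not among the mixed cells, held 97 of the 251 Ifng UMIs, 234 of the 1139 Ccl4 UMIs and 67 of the 214 Ccl3 UMIs of its library. This cell had 9724 UMIs in all and 15 UMIs of the NK list, which the mixed definition does not use. With the highest cell of each library set aside gene by gene, the log2 ratios became -0.48 for Ifng (-0.81 to -0.15), -0.39 for Ccl4 (-0.53 to -0.26) and 0.46 for Ccl3 (0.17 to 0.76), against 0.12 for Ccl3 in all members. Prf1 stayed at -0.70. The 2-fold lower level of Ifng therefore rested on 1 cell. Among the members without UMIs of the innate lymphocyte genes above, the log2 ratio of Ifng was -0.20.

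Xcl1, the gene of lymphotactin, was higher in KD in the full sum (32.7 and 105 CPM, a log2 ratio of 1.68) but -0.49 without the mixed members, with an interval that included 0 (-1.68 to 0.68). It was detected in 5.83% of Ctrl and 7.26% of KD members.

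The circulating-cell genes Klrg1, Cx3cr1 and S1pr5 were each detected in at most 14.6% of members, and the resident-cell gene Cxcr6 in most. Other genes of the circulation and terminal effector list varied. Itga4 had 362 UMIs in Ctrl and 444 in KD members and Itgal 187 and 225, but S1pr1 only 11 and 19. Against non-cycling CD8 T cells with both Pdcd1 and Havcr2 detected, its 12 tested genes had a median log2 difference of 0.47 in Ctrl and 0.37 in KD. Klrg1 was detected in 8 Ctrl and 3 KD members (7.77% and 2.42%), or 2.94% and 2.46% after every cell was thinned to 2000 UMIs, against 1.21% and 0.162% of B cells. Cx3cr1 was detected in 14.6% and 13.7% of members (8.82% and 8.2% thinned), and in 4.24% and 3.08% of B cells (2.07% and 1.28% thinned) at median depths of 2753 and 2741 UMIs. In macrophages, which express this receptor themselves, the shares were 33.9% and 30.3% (12.5% and 11.1% thinned), and in CD8 T cells with both Pdcd1 and Havcr2 detected they were 32.2% and 21.4% (12.8% and 8.33% thinned). S1pr5, a receptor of circulating effector cells, was seen in 0 of 103 Ctrl members, which allows a share of cells with a UMI of up to 2.91% (3 counts), and in 2 KD members. 

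Cxcr6 was detected in 58.3% of Ctrl and 53.2% of KD members (39.2% and 36.1% thinned), against 1.13% and 0.542% of macrophages and 78.5% and 76.6% (46.2% and 40.1% thinned) of the CD8 T cells with both Pdcd1 and Havcr2. Its level was 316 and 232 CPM (-0.44, -0.79 to -0.10), and without the mixed members the log2 ratio of -0.24 had an interval that included 0. The other residency genes were unevenly represented. Rgs1, a regulator of chemokine receptor signalling, was in 79.6% and 81.5% of members, whereas Itgae, the CD103 integrin chain, and Zfp683, the transcription factor HOBIT, were each seen in no Ctrl and 2 KD members. Klrg1 and Cxcr6 were detected together in 3 Ctrl and no KD members, and Cx3cr1 and Cxcr6 in 6 and 8.

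The NK-type receptor Klrc1 (NKG2A) was detected in 78.6% of Ctrl and 79.8% of KD members, or 55.9% and 53.3% thinned, against 1.29% and 0.407% of macrophages and 82% and 78.1% (50.4% and 54.2% thinned) of the CD8 T cells with both Pdcd1 and Havcr2. Its level was 464 and 468 CPM. The related receptor gene Klre1 was at 222 CPM in Ctrl and 315 in KD, a log2 ratio of 0.50 (0.15 to 0.86), and 0.52 without mixed members.

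Of the genes of chronic stimulation, Tox was detected in most members, although the rule had left out cells with both PD-1 and TIM-3. Tox, a transcription factor of exhausted CD8 T cells, was in 88.3% of Ctrl and 90.3% of KD members at 981 and 895 CPM. Pdcd1 was at 157 and 156 CPM and in 38.8% and 37.9% of members, a share bounded by the rule. Ctla4 was at 318 and 295 CPM and in 55.3% and 60.5% of members, and Lag3 was at 85 and 86 CPM and in 28.2% and 35.5%.

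Within the members, some genes had the same order of levels over the Gzma classes in both libraries. Those named in this paragraph are examples from the many genes examined. The number sharing an order is not given, and whether it exceeded chance was not tested. The classes were cut on Gzma, itself a gene of the rule. Ccl5 was at 14500, 16800 and 19800 CPM in Ctrl members with 3 to 5, 6 to 19 and 20 or more Gzma UMIs, and at 10700, 11400 and 15900 CPM in KD. Ikzf3, the lymphoid transcription factor Aiolos, was at 200, 246 and 484 CPM in Ctrl and 148, 228 and 359 in KD. Ly6a (Sca-1), an interferon-inducible surface protein, went the other way, at 465, 339 and 161 CPM in Ctrl and 287, 195 and 149 in KD, and so did the chemokine receptor gene Ccr2, at 224, 192 and 107 CPM in Ctrl and 321, 293 and 155 in KD.

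Gzmb was ordered differently in the 2 libraries, at 651, 1040 and 1460 CPM across the classes in KD but at 1390, 1130 and 1630 in Ctrl. Tox was at 969, 973 and 1010 CPM in Ctrl and 756, 824 and 983 in KD, and Klrc1 was between 428 and 487 CPM in all 6 groups of cells. The class with 20 or more Gzma UMIs held 30 Ctrl and 63 KD cells.

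The members were next set against the CD8 T cells that met every step of the rule but had no Gzma UMI (479 in Ctrl and 135 in KD). Among 4076 genes with at least 50 UMIs in each library, 13 (0.319%) were higher in members by 2-fold or more with an interval off 0 in both libraries, and 23 (0.564%) were lower. Without mixed cells the counts were 11 of 3637 (0.302%) and 17 (0.467%). Gzma is counted among the higher genes in both cases and differs by construction. Ccl5 was at 4710 CPM in the Gzma 0 cells of Ctrl and 6250 in those of KD, so the members exceeded them by 1.85 in Ctrl and 1.12 in KD on the log2 scale. Gzmk was at 94.2 and 84.4 CPM in the Gzma 0 cells, 1.21 and 1.17 below the members.

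The granule genes differed unequally between members and Gzma 0 cells. Gzmb was higher in members by 1.17 in Ctrl and 0.81 in KD (log2), whereas Prf1 differed by -0.03 (-0.31 to 0.23) in Ctrl and -0.37 in KD. Of the 14 granule genes tested, only Gzmk was 2-fold higher in both libraries. Trgc2 (Tcrg-C2) was higher in members by 0.98 and 1.34, and Ccr2 by 1.11 and 0.72.

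Ikzf2, Nrp1 and Tnfrsf4 were lower in members than in Gzma 0 cells. Ikzf2, the gene of the transcription factor Helios, was at 538 CPM in Gzma 0 cells of Ctrl and 512 in those of KD, with members at 264 and 252 CPM (log2 differences of -1.03 in each). Nrp1, the gene of neuropilin-1, had log2 differences of -1.86 in Ctrl and -1.05 in KD, and Tnfrsf4, the costimulatory receptor OX40, had differences of -1.51 and -2.32. Tox was nearly level, at -0.26 and -0.14.

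The following genes were chosen after their values were seen, among those that differed without mixed cells. Cd7, a surface glycoprotein of T and NK cells, was at 23.9 CPM in Gzma 0 cells and 201 in members of Ctrl (3.08 log2), and at 57.6 and 164 CPM in KD (1.51). Metrnl, which encodes a secreted protein, was at 30.3 and 91.3 CPM in Ctrl and 21.8 and 80.8 in KD. Ccl1, a chemokine gene, was at 47.8 CPM in the Gzma 0 cells of Ctrl (112 UMIs) and had no UMI in the Ctrl members. In KD it was at 94.9 CPM (61 UMIs) in Gzma 0 cells and 1.92 CPM (1 UMI) in members. Xcl1 was at 210 and 35.1 CPM in Ctrl and 244 and 25 in KD, Gzma 0 cells first.

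Against the non-cycling CD8 T cells with both Pdcd1 and Havcr2 detected, whatever their Gzma and Tcf7 (PD-1+ TIM-3+ cells, 674 in Ctrl and 192 in KD), 26 of 5080 genes (0.512%) were higher in members in both libraries and 44 (0.866%) lower, or 24 of 4699 (0.511%) and 48 (1.02%) without mixed cells. Prf1 was at 566 and 427 CPM in PD-1+ TIM-3+ cells, with log2 differences of -0.93 and -1.23 in members. Ccl5 was higher in members by 1.69 in Ctrl and 0.89 in KD, and Ccr2 by 1.70 and 1.18. Gzmb differed by 0.47 and 0.26. Genes of the rule, such as Pdcd1 and Havcr2, are counted too and differ by construction.

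Lag3, an inhibitory receptor, was at 170 and 183 CPM in PD-1+ TIM-3+ cells against 85 and 86 in members. Also lower in members were Ikzf2 (log2 differences of -1.14 and -1.03) and Tnfrsf4 (-2.09 and -3.40), whereas Tox differed by -0.20 and -0.08. Without mixed members Lag3 and Ikzf2 did not pass 2-fold in both libraries. Irf8, a transcription factor induced by antigen receptor signals, had differences of -1.45 and -0.73, and of -1.48 and -1.23 without mixed cells, then past 2-fold in both libraries. The glycolysis and hypoxia genes had a median log2 difference of -0.65 in Ctrl and -0.69 in KD, with no gene of the list 2-fold different in both libraries. Also lower, and chosen after the values were seen, was Spp1, the osteopontin gene, at 341 CPM in PD-1+ TIM-3+ cells and 30.4 in members of Ctrl and at 204 and 11.5 CPM in KD, both without mixed cells.

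**Figure D3:**
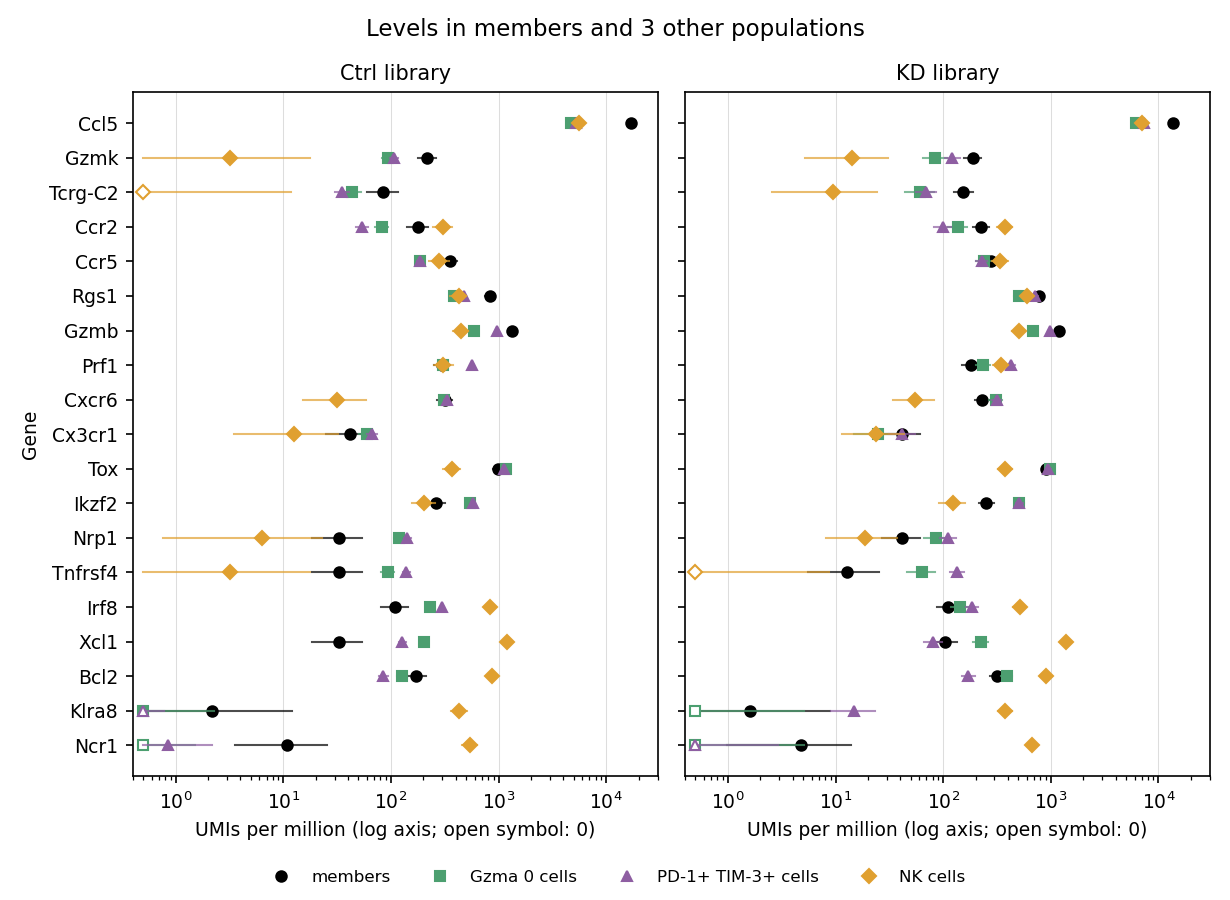
Level in CPM (horizontal log axis) of 19 genes in members, Gzma 0 cells, PD-1+ TIM-3+ cells and NK cells, with Ctrl and KD in separate panels, exact 95% Poisson intervals as lines and open symbols for 0. Ccl5 and Ccr2 are highest in members within the CD8 T cell populations of both libraries, Ikzf2 and Tnfrsf4 are lowest in members within the same populations, and Klra8 and Ncr1, a gene used to choose the NK cells, stand out in NK cells.

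Across the genes measured in members, few differed by 2-fold or more between KD and Ctrl. Of 3521 genes with at least 50 UMIs over both libraries, 61 (1.73%) were at least 2-fold higher in KD with an interval off 0, and 29 (0.824%) were at least 2-fold lower. Whatever their fold, 193 genes had an interval above 0 and 282 an interval below 0. The 10 highest were S100a9, Asprv1, Ltf, Wfdc21, Ptprb, Ngp, S100a8, Lcn2, Retnlg and Fabp4, mostly granule and antimicrobial genes of neutrophils together with endothelial genes, and between 92% and 100% of their KD UMIs lay in the mixed members. The neutrophil list as a whole had 29 UMIs in 23 Ctrl members and 4477 UMIs in 81 KD members, of which 97.2% were in mixed members and 2147 in a single cell.

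Without the mixed members 13 of 3111 genes (0.418%) were 2-fold higher in KD and 29 (0.932%) lower, so that higher genes no longer outnumbered lower ones. The neutrophil genes S100a9 (16.4 and 117 CPM, 2.84 log2) and S100a8 (18.7 and 102 CPM, 2.44) still led, spread thinly over the remaining cells. Next came Cst3, of which 71.5% of the KD UMIs came from 1 cell. Ppp3cc, a calcineurin subunit, was at 58.6 and 133 CPM (1.18). Whether free neutrophil RNA in the KD library added to these values was not tested.

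Of the 29 genes lower in KD, 16 were also among the 29 lower without the mixed members, and of the 61 higher genes 9 were also among the 13. Phlda1, induced by T cell activation, was at 255 CPM in Ctrl and 52.5 in KD (-2.28, -2.88 to -1.71), in 36 and 25 members, and was -2.20 without mixed members. Hspa1a, a heat shock gene whose reads may be shared with Hspa1b, was at 1800 and 704 CPM (-1.35), and Ifi213, of the interferon-inducible p200 family, at 111 and 36.6 CPM (-1.60).

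**Figure D4:**
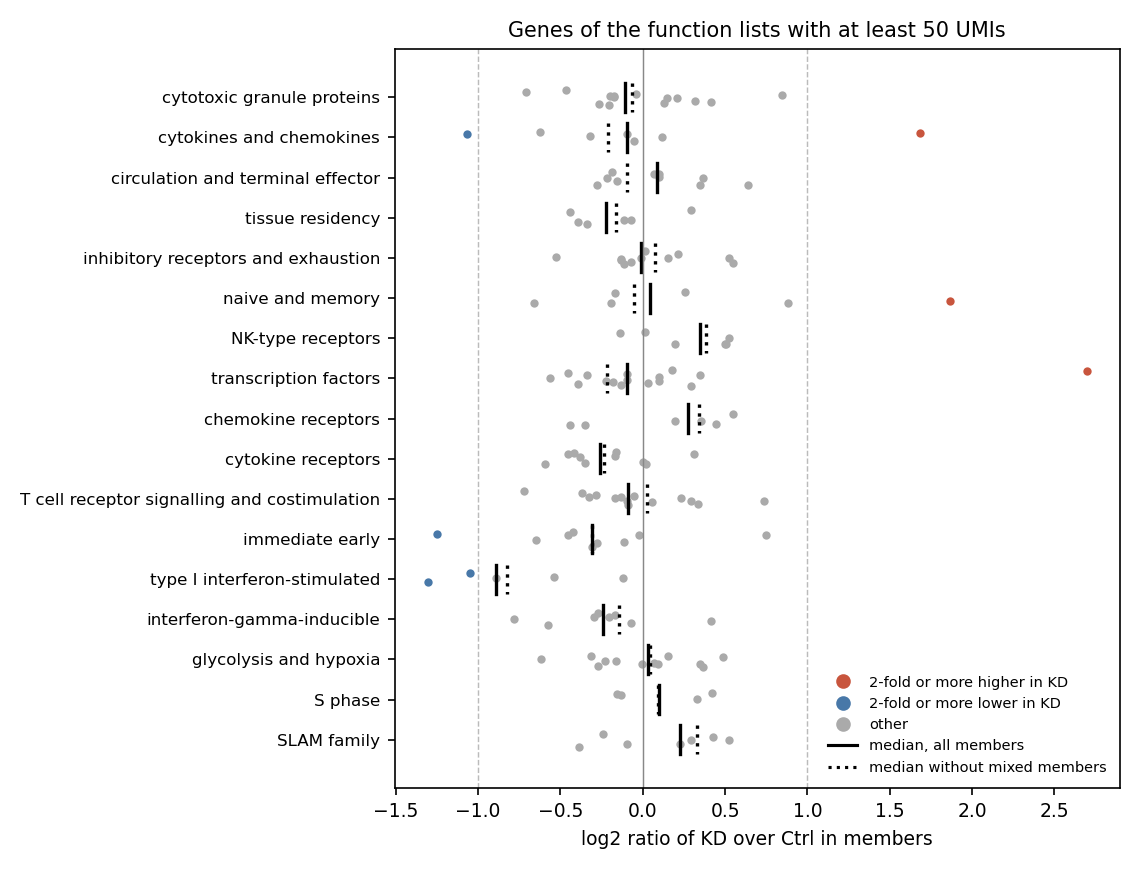
Log2 ratio of KD over Ctrl in members (horizontal axis) for each gene of 17 function lists with at least 50 UMIs, 1 point per gene, coloured where the ratio is 2-fold or more with an interval off 0. Solid and dotted bars are the list medians with and without mixed members, and the type I interferon-stimulated list lies lowest at -0.89 and -0.83.

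By function, most lists had a median near that of all genes tested (-0.04, or -0.03 without mixed members). The type I interferon-stimulated genes were lowest, with 2 of 5 tested genes 2-fold lower, none higher and a median of -0.89. Isg15, a ubiquitin-like antiviral protein, was at 122 and 58.9 CPM (-1.05, -1.69 to -0.43), and Ifi27l2a at 386 and 156 CPM (-1.31, -1.68 to -0.94) and in 51.5% and 33.9% of members. Without mixed members these were -0.87 and -1.09, leaving 1 gene past 2-fold. Bst2, of the same list, had a log2 ratio of -0.12 in all members and -0.65 without the mixed ones.

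The cytotoxic granule list had 0 of 14 genes past 2-fold and a median of -0.11. Cytokines and chemokines had 1 of 7 higher (Xcl1) and 1 lower (Ifng), and naive and memory genes 1 of 6 higher, which was Id3 and which turned to -1.13 without mixed members. Transcription factors had 1 of 16 higher, Maf, with 17.4 and 113 CPM (2.70), of which 1.64 was left on 5 and 19 UMIs without mixed members. Immediate early genes had 1 of 9 lower, which was Fosb (-1.25, or -0.81 without mixed members). Against 1.73% and 0.824% of all genes, no gene passed 2-fold among the circulation, residency, inhibitory receptor, NK-type receptor, chemokine receptor, cytokine receptor, T cell receptor signalling, interferon-gamma-inducible, glycolysis, S phase and SLAM family lists.

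Several smaller differences kept their direction without the mixed cells. Bcl2, the survival factor, was at 170 CPM in Ctrl and 314 in KD (0.88, 0.50 to 1.28), in 38.8% and 54.8% of members. Cd226, the activating receptor DNAM-1, was at 133 and 221 CPM (0.73, 0.29 to 1.19). Hif1a, the hypoxia-inducible factor, was at 384 and 250 CPM (-0.62, and -0.70 without mixed members), and Ly6a at 323 and 188 CPM (-0.78 and -0.67).

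**Figure D5:**
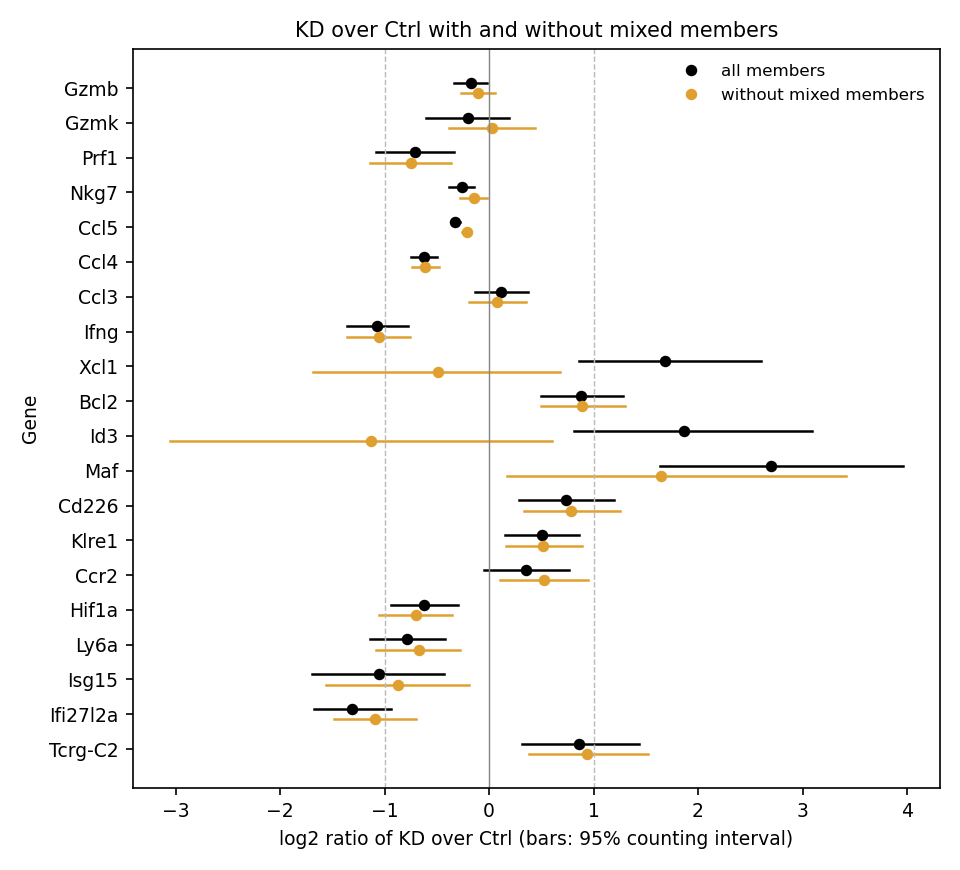
Log2 ratio of KD over Ctrl for 20 genes in all members (black) and without the mixed members (orange), with exact 95% counting intervals as bars. Prf1, Ifng and Ifi27l2a keep their place to the left of 0 and Bcl2 and Trgc2 (Tcrg-C2) to the right, whereas Xcl1 and Id3 change sides.

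The same ratio in other lymphocytes of the 2 libraries shows how far these values were shared, without a test of the differences. Bcl2 was higher in KD also in PD-1+ TIM-3+ cells (1.02) and Gzma 0 cells (1.63) and was level in NK cells (0.04). Hif1a was lower in all 3 (-0.48, -0.72 and -1.08). Ly6a was lower in PD-1+ TIM-3+ and Gzma 0 cells (-1.12 and -1.01) and had a ratio of -0.47 in NK cells with an interval that included 0 (-1.28 to 0.33). Ifng was lower in PD-1+ TIM-3+ cells (-1.09) but higher in NK cells (0.62), and Prf1 was lower in PD-1+ TIM-3+ (-0.41) and Gzma 0 cells (-0.37). Ccl4 was lower in members (-0.62) and higher in NK cells (1.17). Ccl5 was lower in members and higher in KD in PD-1+ TIM-3+, Gzma 0 and NK cells (0.48, 0.41 and 0.33). 

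Ly9 itself, targeted only in the tumour cells, had 10 UMIs in Ctrl and 14 in KD members, or 21.8 and 22.3 CPM, a log2 ratio of 0.03 (-1.24 to 1.36). This count could not show a difference of 2-fold. Of its relatives in the SLAM receptor family, Slamf7 was at 155 and 145 CPM, Cd48 at 342 and 400 CPM and Cd84 at 69.8 and 93.9 CPM, and the adaptor gene Sh2d1a (SAP) was at 316 and 268 CPM.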

How the data were processed

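Single-cell RNA-seq of CD45+ liver metastasis cells was analysed from 1 library per group. The authors deposited raw UMI counts per gene and barcode; the submitters' processing notes name Cell Ranger 7.1.0, Seurat 5.1.0 and R 4.4.1. Barcodes were kept between 200 and 6000 detected genes, up to 30000 UMIs and up to 10% of UMIs from mitochondrial genes. Counts were summed over a population and divided by its total. Genes with at least 50 UMIs were compared by log2 ratio with exact conditional binomial intervals, UMI sums with exact Poisson and shares with Clopper-Pearson intervals (95%, counting error only), and a gene was called at 2-fold with an interval off 0. Shares were repeated with cells thinned to 2000 UMIs. Named genes were those of 17 function lists, the cell type marker lists and the 10 highest and lowest called genes. Cd7, Metrnl, Ccl1 and Spp1 were taken from the contrasts between populations after their values were seen. For 3 list genes the match was by identifier. The members and lists were chosen with earlier results of these data known. Scripts were tested on simulated data. The mixed-member, highest-cell and both-library contrast alternatives were chosen after seeing the data. Python 3.11.15, scipy 1.17.1 and edgeR 4.0.16 were used, edgeR only for an alternative scaling.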

Additional observations from a re-analysis of the deposited data

Results flagged for a closer look

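Among the list and top genes with at least 50 UMIs, the KD over Ctrl log2 ratio was 0.5 or more in size, with an interval off 0, and of opposite sign in members and in PD-1+ TIM-3+ or NK cells for 3 genes, and with 1 library per group the difference between populations was not tested. Ifng had a log2 ratio of -1.07 in members and 0.62 in NK cells, and Ccl4 -0.62 and 1.17. Without the highest cell of each library the members' ratios were -0.48 and -0.39. Xcl1 had a log2 ratio of 1.68 in members and -0.66 in PD-1+ TIM-3+ cells, and was -0.49 in members without the mixed cells.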

How the results depend on the processing

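With 1 library per group and 103 and 124 cells, the intervals cover counting error only. The KD minus Ctrl share of CD8 T cells that were members was 9.81 points with cells thinned to 2000 UMIs, 2.05 with no UMI of the gamma-delta, innate-like and NK genes, 3.08 with at most 2 UMIs of the myeloid, B cell, neutrophil and hepatocyte lists, 0.168 of all filtered cells and 27.5 of the pool picked by Gzma alone. Genes 2-fold higher in KD numbered 10 after thinning, 8 without the innate genes, 12 at the low limit on other lineages, 13 without mixed members, 10 at a minimum of 200 UMIs, 297 at a minimum of 10 and 131 at 1.5-fold. Genes lower in KD numbered 10 after thinning, 17 without the innate genes, 5 at 200 UMIs, 150 at 10 UMIs and 148 at 1.5-fold. Genes higher in members than in Gzma 0 cells numbered 4 at 200 UMIs and 49 at 1.5-fold, and lower ones 3 and 56. Against PD-1+ TIM-3+ cells there were 3 and 98 higher and 14 and 117 lower. Xcl1 turned to -1.86 after thinning, -0.36 without the innate genes and -0.49 without mixed members, Id3 to -1.13, Tyrobp to -0.28 and Lcn2 to -0.28 without mixed members, Maf to -0.59 after thinning, and Ngp to -1.04 and Retnlg to -0.04 without the innate genes. The cause was not tested. Of the 1824 repeats of 131 single-gene ratios, 1596 were labelled the same and 9 reversed. A reversal was counted only for genes called at 2-fold in the main setting. A gene not called there was labelled the same when it stayed uncalled and within its main interval, whatever its sign. No paired analysis was possible because each group was 1 library.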

Other observations

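The Ctrl member with the most Ifng UMIs (11 Gzma UMIs, 9724 UMIs in all) also held 72 of the 97 Ifitm1 UMIs of the Ctrl members. In KD, Ifng was detected in 48.4% of members with at most 6.1% of its UMIs in 1 cell.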
